A study of Bos taurus with 2 samples.

Results

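The regions described here are the H3K4me3 islands that were called in tough longissimus dorsi (LD) muscle of Angus steers and that no island of the tender group overlapped by even 1 bp. They were chosen by the overlap of the deposited tender and tough lists, and they number 1574 of the 11277 tough islands on chromosomes 1 to 29, which is 14.0% of that list (95% Wilson interval 13.3 to 14.6%). The other 9703 tough islands overlapped a tender island and are called shared below. In the opposite direction 2741 of 12607 tender islands, or 21.7% (21 to 22.5%), overlapped no tough island.

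H3K4me3 was measured by ChIP-Seq in purebred Aberdeen Angus steers of about 12 months, with LD samples taken right after harvest. Steaks were scored by Warner-Bratzler shear force (WBSF), the force needed to shear a cooked core of meat. The tender group was the 4 steers with the lowest WBSF (6.77 ± 0.56 kg, as the labels give it) and the tough group the 5 steers with the highest (19.93 ± 0.39 kg). By the methods, chromatin of the steers of a group was pooled in equal amounts and the pool was then cut to mononucleosomes with micrococcal nuclease, so each group is 1 library, the islands are not replicates of it, and there is no replicate check on a difference between them. All intervals below cover counting over islands only.

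Trimethylation of lysine 4 on histone H3 is deposited by SET1 and MLL methyltransferase complexes and is removed by demethylases of the KDM5 family. It is strongest on the nucleosomes beside the start sites of active and poised genes, many of them in CpG islands, where it is read by factors that help transcription to begin. In skeletal muscle, as in other tissues, most such starts belong to genes that many cell types use, and a smaller number to genes of the contractile and metabolic machinery. In whole muscle a weaker signal from fewer marked nuclei and one from less mark per nucleus cannot be told apart.

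An island is a run of 200 bp windows with more reads than the genome average, joined across gaps of up to 400 bp by SICER, a caller made for broad histone marks. Its score adds up, window by window, how improbable the reads found there are (the negative natural log of their Poisson probability at the genome's mean). The score therefore fixes the number of reads where it is low, and all 1574 tough-only islands could be solved in this way. The mean was 0.182 reads per window in tough muscle, 1.17 times the 0.157 of tender muscle, and the lowest scores listed were 25.2 and 23.2. A tough-only call means that no tender island was listed at the place, since the tender reads there are not in the files analysed here.

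Tough-only islands rested on few reads spread thinly over a long stretch. They held a median of 14 reads in the tough library (quartiles 13 and 17, range 9 to 57), whereas shared tough islands held 26 (18 and 37, with islands above the solvable scores counted as higher). The most common number was 13 reads, in 356 of the 1574, followed by 14 reads in 246 and 12 reads in 200. In all, 23985 tough reads lay in the tough-only islands, which covered 4.41 Mb or 14.4% of the base pairs in tough islands.

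The reads of a tough-only island were scattered rather than stacked. A median of 9 windows carried a read (quartiles 7 and 11), the same median as in the shared islands whose reads were solved, which leave out those of the highest scores. The occupied windows were 66.7% of the island's length against 80% in the solved shared islands. Over the whole island the density was 1.09 reads per window (0.867 and 1.5), which is 5.98 times the genome mean, and it was 2.13 reads per window, 11.7 times the mean, in the solved shared islands. No window held more than 3 reads in 827 tough-only islands (52.5%, 50.1 to 55.0%) and in 9.30% of solved shared islands. A window with at least 5 reads was found in 408 tough-only islands (25.9%) against 78.1% of the 8787 solved shared islands, and one with at least 8 in 50 (3.18%) against 32.6%. A window crowded with reads, which most solved shared islands had, was thus less common among the tough-only. In the tender list the order was the same. The median share of occupied windows was 71.4% in tender-only and 81.8% in solved shared tender islands, and no window held more than 3 reads in 37.4% of the tender-only.

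In length the tough-only islands had the higher median but fewer very long members. Their median was 2800 bp (quartiles 1800 and 3600, range 200 to 10200), against 2400 bp (1800 and 3400) for shared tough islands. Lengths of 5 kb or more were found in 5.21% (4.22 to 6.42%) of the tough-only and 7.20% (6.71 to 7.74%) of the shared. In the tender list the order was the other way round, with 1800 bp for tender-only and 2000 bp for shared islands. The score per window, which is high where reads crowd together, had a median of 2.37 in tough-only (1.76 and 3.50) and 5.58 in shared tough islands (3.76 and 8.20), and it was 3.41 in tender-only islands. Score, length and reads were part of what made an overlap possible, and these differences are a description of the members with no test.

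The share of tough islands that were tough-only depended steeply on the reads. It was 39.2% (89 of 227) of those with up to 11 reads and highest, at 48.1%, with 12 or 13. From there it fell to 35.7% with 14 or 15, 23.4% with 16 or 17 and 14.2% with 18 to 20, a level near the 14.0% of the whole list. Above that the share fell to 6.93% with 21 to 24 reads, 2.79% with 25 to 29 and 0.654% with 30 to 39. Of the 1205 solved islands with 40 reads or more, 1 was tough-only. On the score scale the share went from 53.6% (754 of 1407) under a score of 30 to 0.041% (1 of 2411) at 100 or more.

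**Figure D1:**
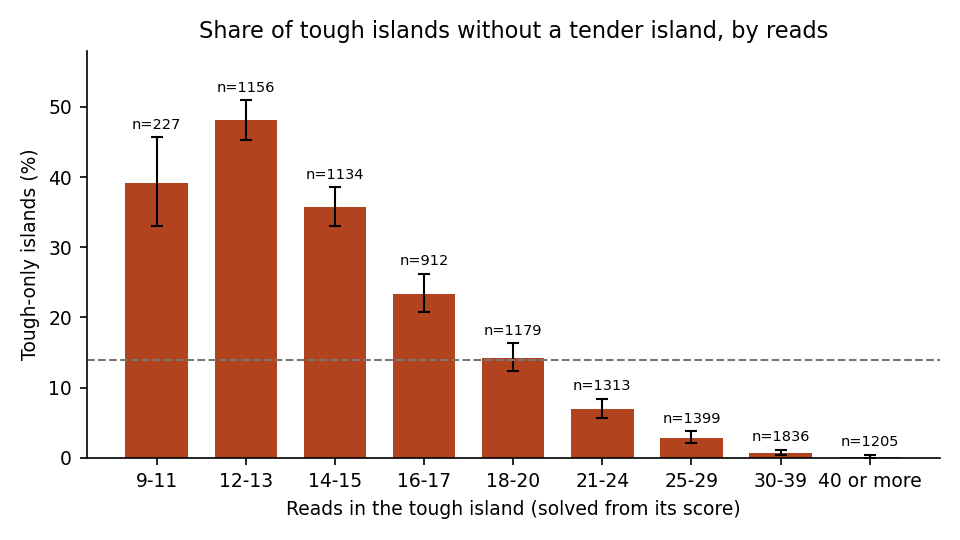
Percent of tough islands that were tough-only, by the number of reads in the island, with 95% Wilson intervals and the number of islands above each bar; the dashed line is the 14.0% of the whole list. The share peaked at 48.1% with 12 or 13 reads and was under 3% from 25 reads on.

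At equal reads the tough-only islands were the longer ones. With 13 reads there were 356 tough-only and 345 shared islands, and the median length was 2800 bp in the former and 1800 bp in the latter, with 9 and 7 occupied windows. With 14 reads the medians were 2800 and 1800 bp, with 16 reads 3000 and 2000 bp and with 18 reads 3200 and 2200 bp. The gap narrowed at 11 reads to 1200 against 1000 bp. Since the length of an island with a given number of reads sets its density, the same fact reads as fewer reads per window at each number of reads.

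**Figure D2:**
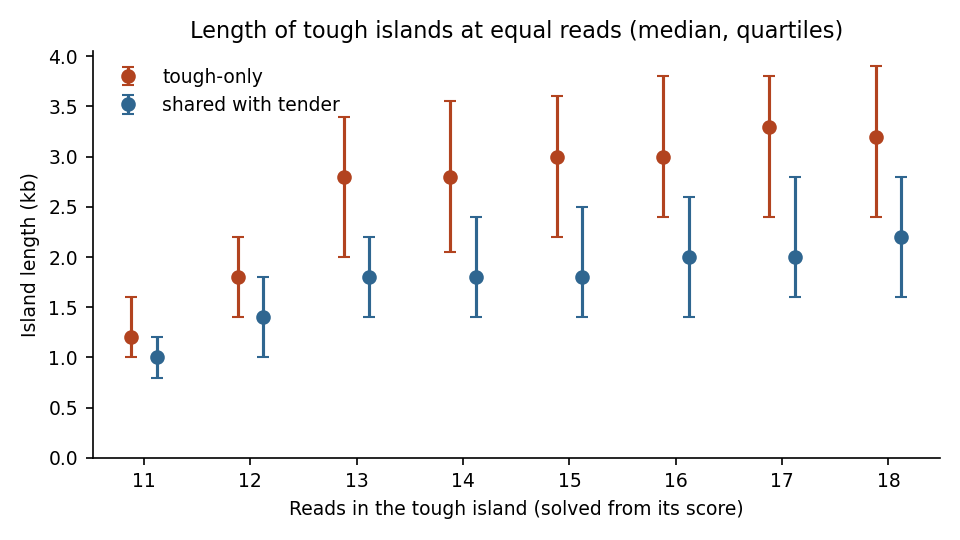
Length in kb of tough-only and shared tough islands with the same number of reads, from 11 to 18; points are medians and bars run from the lower to the upper quartile. At each number of reads the tough-only median lay above the shared one, for instance 2800 against 1800 bp at 13 reads.

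Few islands lay within 400 bp of the edge of the 1 bp overlap rule. Of the 1574, 31 (1.97%) lay at most 400 bp from a tender island, 9 of them with no base between, and these 31 had a median score of 34.5 and a median length of 3200 bp. Just inside sharing, 17 tough islands had 200 bp overlapped and 100 had 400 bp, and together they had a median score of 34.1 and a median length of 1000 bp. Counting a gap of up to 400 bp as shared left 1543 tough-only islands. The number did depend on how much overlap was asked for. With 50% of the tough island's length required it was 2843, at a median of 1800 bp to the nearest tender island.

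By the rule no tough-only island overlapped a tender one, and the closest tender island lay about as far off as the closest other tough island (median 24.6 kb). The median distance to the closest tender island was 23.6 kb (quartiles 6.6 and 68.2 kb), and it reached 2154.8 kb. Another 143 (9.09%) lay between 0.4 and 2 kb away, 329 (20.9%) between 2 and 10 kb, 375 (23.8%) between 10 and 30 kb and 428 (27.2%) between 30 and 100 kb. Beyond 100 kb were 189 (12.0%) up to 300 kb and 79 (5.02%) farther still. The closest tender island was itself one that some tough island overlapped in 1145 cases (72.7%, 70.5 to 74.9%). Of all tender islands 78.3% (77.5 to 79.0%) overlapped some tough island, so the neighbours of tough-only islands were shared slightly less often than tender islands in general.

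The distance to the closest other tough island hardly set tough-only islands apart from shared ones. It was 24.6 kb for tough-only (95% interval of the median 22.6 to 27.4, quartiles 6.8 and 74.7 kb) and 27.2 kb for shared islands (26.2 to 28.2, quartiles 8.4 and 75.0 kb), and the intervals of the medians overlapped. The order turned when only tough islands of at least 2 times the lowest score were kept (54.3 kb tough-only against 46.6 kb shared), when the same was asked of tender islands (27.6 against 26.4 kb), and in the deposited bosTau4 lists of the same libraries (27.2 against 27.0 kb). Within 2 kb of another tough island were 171 tough-only islands (10.9%, 9.42 to 12.5%) and 9.41% (8.84 to 10%) of the shared. More than 100 kb from any were 305 (19.4%) and 19.2%. A tough-only island was closer to a tender than to another tough island in 675 cases (42.9%), closer to a tough one in 709 (45%) and equally far in 190 (12.1%).

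**Figure D3:**
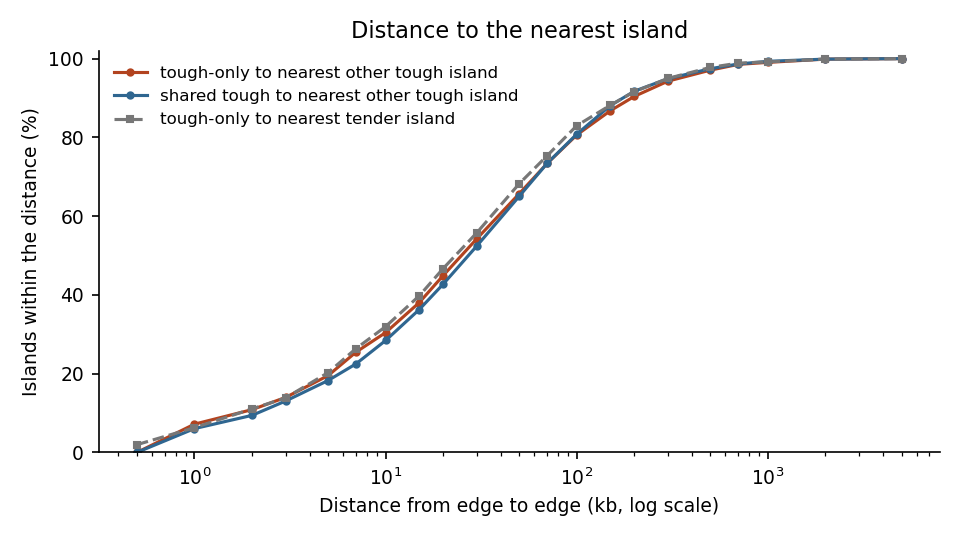
Percent of islands with a neighbour within the distance on the log-scaled axis (kb, edge to edge), for tough-only islands to the nearest other tough island, shared tough islands to the same, and tough-only islands to the nearest tender island. The curves for the tough-only and the shared islands ran close together, with 30.4 and 28.4% within 10 kb.

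Local density differed little, and mainly at the crowded end. Within 500 kb on each side a tough-only island had a median of 8 other tough islands (quartiles 5 and 15, at most 49) and a shared island 9 (4 and 17). Over 20 neighbours were found around 241 tough-only islands (15.3%, 13.6 to 17.2%) and around 19.3% (18.6 to 20.1%) of the shared. With shared islands weighted to the scores of the tough-only ones that share was 17.5%, and the weighted median was 8 neighbours. The order of the medians turned when 50% of the tough island had to be overlapped (9 tough-only, 8 shared), and both were 8 in the bosTau4 lists and with chromosome X added. At the sparse end 46 tough-only islands (2.92%) had no other tough island within 500 kb, against 2.56% of the shared.

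When tough islands of like score were compared, neighbourhood made little difference and length a large one. Among islands with a score under 35, 46.0% (40.6 to 51.6%) of those with up to 2 neighbours within 500 kb were tough-only, 45.2% with 3 to 10, 47.5% with 11 to 20 and 41.3% (36.5 to 46.2%) with over 20. By distance to the nearest other tough island the share was 45.6% up to 2 kb, 47.5% from 2 to 10 kb, 44.7% from 10 to 100 kb and 44.6% beyond. By length it rose from 29% (26.0 to 32.1%, 246 of 849) up to 1.6 kb to 39.8% at 1.8 to 2.4 kb, 54.2% at 2.6 to 3.2 kb and 76.0% (71.8 to 79.8%, 327 of 430) above 3.2 kb. At a like score a longer island is also a sparser one, and the 2 properties cannot be told apart here.

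**Figure D4:**
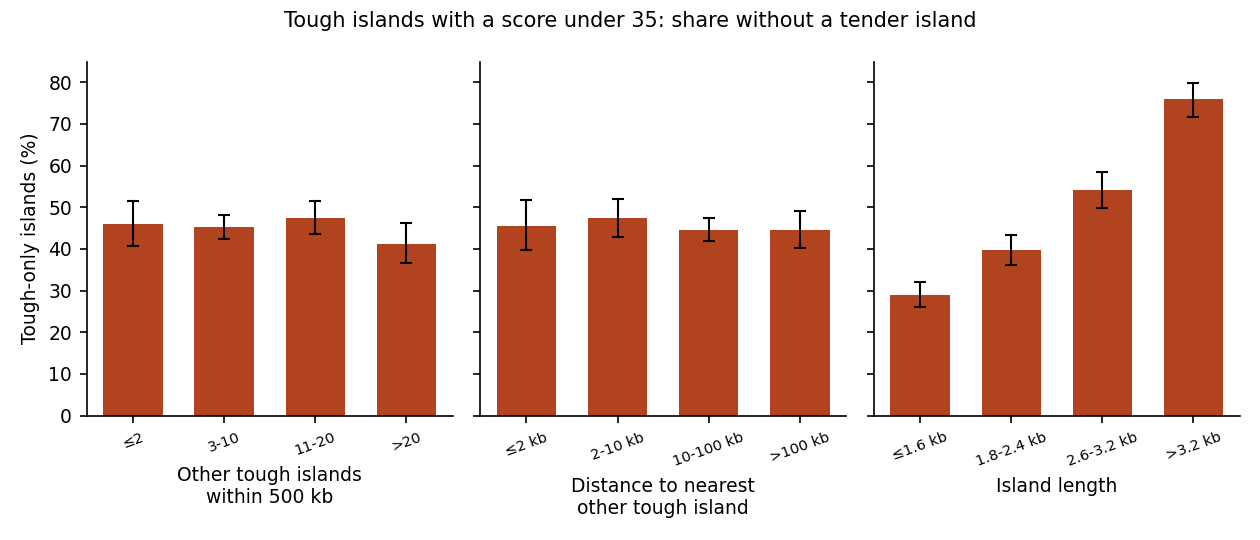
Percent of tough islands with a score under 35 that were tough-only, with 95% Wilson intervals, by the number of other tough islands within 500 kb, by the distance to the nearest one and by island length. The first panels are nearly flat, from 41.3 to 47.5%, and the length panel climbs from 29 to 76%.

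Tough-only islands had other tough-only islands as nearest neighbours somewhat more often than shared islands did. The nearest tough island was tough-only for 295 of them (18.7%, 16.9 to 20.7%) and for 13.2% (12.5 to 13.8%) of the shared, or 13.9% after weighting to like scores. In the bosTau4 lists the shares were 22.1 and 14.7%. They were 30.2 and 23.9% with 50% overlap required, and 36.9 and 31.2% with the 2-fold limit on the tender score. With that limit on the tough score, 1 of the 90 tough-only islands (1.11%) and 1.35% of the shared had a tough-only nearest neighbour. As 1.38% of all tough islands were tough-only there, the 90 are too few to show whether the difference held. Among islands with a score under 35, 51.0% (46.1 to 55.9%) of those whose nearest tough island was tough-only were tough-only themselves, against 44.2% (42.1 to 46.3%) of those next to a shared one. The tender list leaned the same way. There the nearest other tender island was tender-only for 25.1% (23.5 to 26.8%) of tender-only and 19.7% (18.9 to 20.5%) of shared tender islands, so the lean was not particular to tough-only islands. Read along the chromosomes, 1057 tough-only islands stood singly between shared ones and 517 (32.8%) fell into 227 runs of 2 or more, of which 171 had no tender island in between. With 14.0% of all tough islands tough-only, many such runs would arise in a random order too. How many was not computed, so the run counts alone do not show clustering. There were 41 runs of 3, 8 of 4 and 2 of 5.

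The longest runs differed in how tightly they were packed. The 5 islands on chromosome 29 from 30112801 to 30385000 spanned 272.2 kb with 1 tender island among them, scored from 27.0 to 60 and held 75 reads in all. The other run of 5, on chromosome 16 from 75538001 to 77370200, spanned 1832.2 kb and had 4 tender islands in it. Among the runs of 4, 3 had no tender island inside: chromosome 26 from 44941801 to 44991200 (49.4 kb, 67 reads), chromosome 19 from 53376601 to 53466600 (90 kb, 56 reads) and chromosome 18 from 54385801 to 54492200 (106.4 kb, 55 reads). These positions count from 1 and are those of the deposited lists. The methods name bosTau4, but these lists run to 148.8 Mb on chromosome X and the bosTau4 lists to 87.9 Mb, so the build of these positions is uncertain and no genes were assigned to them.

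By chromosome the tough-only share ran from 9.74 to 18.8%. The lowest shares were on chromosome 7 (67 of 688, 9.74%, 7.74 to 12.2%), chromosome 9 (26 of 255, 10.2%, 7.05 to 14.5%) and chromosome 3 (73 of 665, 11%, 8.82 to 13.6%). The highest were on chromosome 27 (22 of 117, 18.8%, 12.8 to 26.8%), chromosome 13 (79 of 428, 18.5%, 15.1 to 22.4%) and chromosome 17 (67 of 379, 17.7%, 14.2 to 21.8%). The 95% interval left out the 14.0% of the whole list on 5 of 29 chromosomes, above it on 13, 17 and 19 and below it on 3 and 7. The 29 intervals were read one by one with no allowance for their number, so some can leave it out by counting alone.

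Chromosome 19 held the most tough-only islands, 135 of its 780 tough islands (17.3%, 14.8 to 20.1%). It carried 8.58% of the tough-only and 6.65% of the shared tough islands on 2.55% of the length, which made 2.11 tough-only islands per Mb where all 29 chromosomes had 0.628. Across the 29 chromosomes the tough-only share went with the percent of tough islands with a score under 35, a count that includes the tough-only islands (Spearman's rho 0.69), and not with tough islands per Mb (rho −0.07). The shares in the bosTau4 lists, which come from the same libraries, ran alongside (rho 0.85), but the order at the top changed: chromosomes 19 (22.0%), 27 (21.5%) and 28 (21.5%) were highest there, and chromosome 17, at 16.4%, was close to the 16.1% of that whole list. In the lists used here, the tough-only share still differed between chromosomes among islands with a score under 35. It ran from 31.7% of 63 such islands on chromosome 9 to 55.8% of 86 on chromosome 17, with 52.6% of 190 on chromosome 19.

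**Figure D5:**
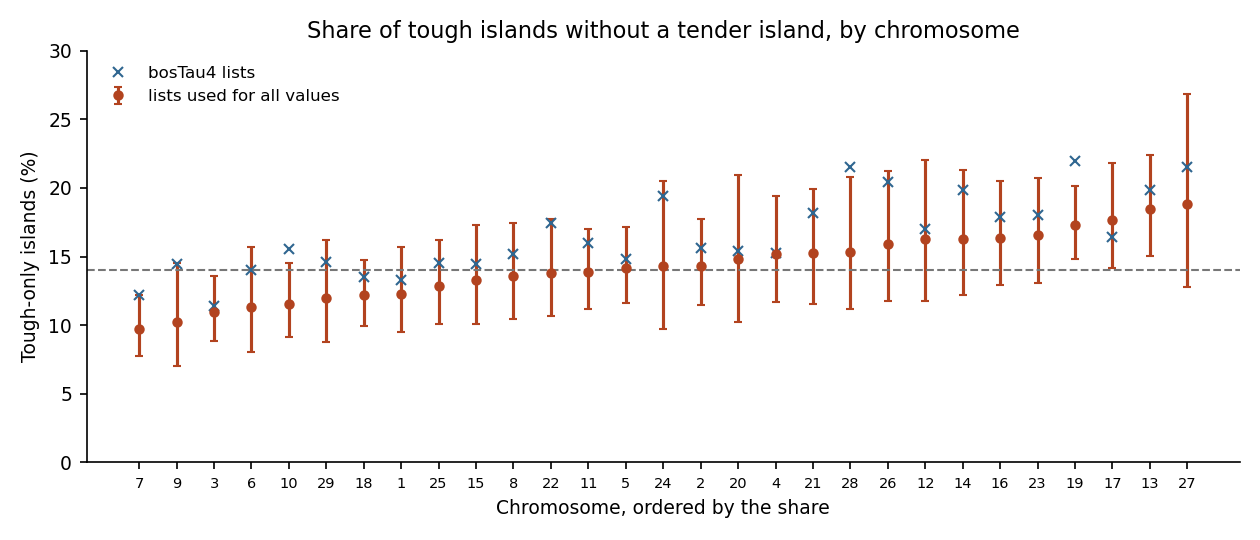
Percent of tough islands that were tough-only on each of chromosomes 1 to 29, ordered by that share, with 95% Wilson intervals; crosses give the bosTau4 lists of the same libraries and the dashed line the 14.0% of the whole list. Chromosomes 7, 9 and 3 lay lowest and 17, 13 and 27 highest.

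Toward the end of the chromosome coordinates tough-only islands were more frequent. In the last 5 Mb before the last listed island lay 175 of the 1574 (11.1%, 9.66 to 12.8%) and 7.51% (7.01 to 8.05%) of the shared tough islands, whereas in the first 5 Mb the shares were 4.64 and 5.34%. Tender-only islands leaned the same way, with 13.4% in the last 5 Mb against 7.57% of shared tender islands. Of all tough islands in those last 5 Mb, 19.4% (16.9 to 22.1%) were tough-only against 13.5% (12.8 to 14.2%) elsewhere, and the end had the higher share on 22 of 29 chromosomes. Leaving out 1 chromosome at a time kept the former between 18.1 and 21.4%. Scores moved with it: in the last 2 Mb the median tough score was 45.1 and 34.0% of islands were under 35, against 59.8 and 20.5% more than 20 Mb from the end. Among islands with a score under 35 the last 5 Mb held 11% (9.32 to 13%) of the tough-only and 11.6% (10 to 13.4%) of the shared.

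A small set of tough-only islands was well above the calling limit. The 2-fold score limit used above (at least 50.3, against the lowest of 25.2) was reached by 90 (5.72%, 4.68 to 6.98%) and by 66.3% of the shared tough islands. These 90 had a median score of 57.0, a median length of 3700 bp and a median of 25 reads. Their median density was 7.42 times the genome mean, against 5.94 times in the other tough-only islands and 11.7 times in the solved shared ones. The median distance to the nearest tender island was 25.7 kb for them and 23.4 kb for the weaker tough-only islands, and that to the nearest other tough island was 24.6 kb in both.

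The highest-scoring of all was on chromosome 23 from 13859401 to 13867000, 7600 bp long. It scored 141.2 on 57 reads in 27 of 38 windows, with 14 in its fullest window, and 1 other tough island lay within 500 kb, 160.4 kb away. A tender island scoring 27.2 lay 3.8 kb from it and overlapped no tough island, so each group had a call of its own at this place.

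The next in score stood in different settings. The island on chromosome 14 from 50790201 to 50794400 (score 96.4, 38 reads) was 16.6 kb from a tender island and 1055.8 kb from the next tough one. The island on chromosome 7 from 47706201 to 47709800 (82.1, 34 reads) was 36.2 kb from a tender island and had 17 other tough islands within 500 kb. On chromosome 8 from 107643801 to 107646400 (79.5, 31 reads) the nearest tender island was 1182.6 kb away, and the nearest tough island, 35.4 kb away with a score of 25.7, was tough-only too. The island on chromosome 2 from 18057001 to 18060200 (76.2, 32 reads) lay 1.6 kb from a tender and from another tough island, both of them shared, and so flanked a place marked in both groups.

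The most crowded and the most drawn-out islands were at opposite ends of the length range. Of the tough-only islands, 2 single windows had the highest score per window, on chromosome 13 from 25911201 to 25911400 and on chromosome 18 from 55854401 to 55854600, each with 9 reads in 200 bp and a score of 28.3. The next, on chromosome 9 from 10787201 to 10787600, had 14 reads in 400 bp and a tender-only island 1.2 kb away. At the other end, the island on chromosome 5 from 32314201 to 32324400 covered 10200 bp with 31 reads in 26 of 51 windows and never more than 3 in one, and it lay 0.6 kb from another tough-only island. The next longest, on the same chromosome from 25832801 to 25840800, had 22 reads in 20 of 40 windows over 8000 bp.

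The members farthest from any tender island included ones of low and of high score. Of the 79 more than 300 kb away, 5 (6.33%) reached the 2-fold score limit, against 5.72% of all 1574. On chromosome 12 from 66074401 to 66076200 an island with 12 reads was 2154.8 kb from any tender and 3408.2 kb from any other tough island. On chromosome 14 from 52949801 to 52954400 one with 13 reads was 2136.2 kb from any tender island, and its nearest tough neighbour was the tough-only island from 50790201 described above. The third, on chromosome 1 from 93468601 to 93471600, had 31 reads, a score of 74.5 and 1728.2 kb to the nearest tender island.

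The members in the densest surroundings were of both kinds as well. The island on chromosome 25 from 27020201 to 27022600 had 49 other tough and 51 tender islands within 500 kb, lay 1.0 kb from one of each and held 11 reads. On chromosome 18 the island from 56035401 to 56039200 had 44 tough neighbours and 28 reads (score 65.4), and the one from 56000601 to 56005400 had 42 neighbours and 15 reads in 14 of 24 windows. Even in the richest stretches of the map, islands of few reads thus appeared in the tough list alone.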

How the data were processed

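The authors aligned the reads with Maq, allowing 1 mismatch, kept unique reads and called islands with SICER 1.1 (200 bp windows, 400 bp gaps, E-value 100), on 1 pooled library per group. The deposited lists hold chromosome, start, end and a SICER score per island. Chromosome X reaches 148.8 Mb in the lists used here and 87.9 Mb in the other deposited lists. The latter are called the bosTau4 lists after the build named in the methods and served as an alternative. They hold 12452 tender and 11395 tough islands in all, the totals the paper reports, against 12930 and 11535 in the lists used here. The lists used here are thus not the set the paper counted, and the methods do not describe them separately.

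Overlap, distance (edge to edge) and density were computed with pandas 2.3.3, numpy 2.4.6 and scipy 1.17.1 under Python 3.11.15. The mean reads per window came from islands a single window long. Reads were solved for scores up to 145, with exactly 1 solution for 99.8% of those tough islands; the 900 with a higher score count as holding more reads. The solver was tested on simulated data. Positional comparisons at like score used score bins or weights over 10 score bins. The last island end stood in for chromosome length.

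With 1 library a group nothing was tested; shares carry Wilson and medians order-statistic intervals. Named regions are the 5 highest in score, the 3 highest in score per window, longest, farthest from tender islands and in the densest surroundings, the longest runs, and the 3 chromosomes with the highest and lowest share; chromosome 19 was singled out after its values were seen. Members and these rules were chosen with earlier results of these data known. Alternatives were an overlap of 50%, a gap of up to 400 bp, 2 times the lowest score in either list, chromosome X added, 100 kb and 1 Mb flanks, and centre-to-centre distances.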

Additional observations from a re-analysis of the deposited data

Results flagged for a closer look

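Chromosome X, outside the chromosomes 1 to 29 described above, held 31 tough-only islands among 255 tough islands (12.2%, 95% Wilson interval 8.70 to 16.7%). They had a median score of 31.7, a median length of 2200 bp and a median of 14 reads, and the highest score among them was 68.4. It is listed here because it is signal outside the data compared in the text.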

How the results depend on the processing

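Of 77 values recomputed under 10 alternatives, 44 were counted as unmoved and 33 as moved. Unmoved meant inside the 95% interval of the value reported or, for the number of islands, within 1.5 times of it. That rule does not cover the spread of the tough-only percent over chromosomes, which is among the 44. The spread of the tough-only percent over chromosomes was counted as unmoved wherever it was recomputed. It was 9.07 in the lists used, 3.49 with the higher tough limit and 12.3 with 50% overlap. No interval for it is given here, so its count as unmoved does not show that it was stable. With an overlap of 50% of the tough island required, 2843 islands were tough-only, with a median of 2.84 score per window, 3000 bp and 1800 bp to the nearest tender island, and 30.2% had a tough-only nearest neighbour (25.2% of all tough islands being tough-only). With tough islands of at least 2 times the lowest score, 90 were tough-only, with 3.15 score per window, 3700 bp, 25 reads, 25700 bp to tender islands, 54300 bp to other tough islands (46600 bp for shared), 4 neighbours within 500 kb (5 for shared), 1.11% with a tough-only nearest neighbour and 14.4% in the last 5 Mb. With the same limit on tender islands, 3767 were tough-only, with 3.12 score per window, 2400 bp, 46000 bp to tender and 27600 bp to tough islands, and 36.9% with a tough-only nearest neighbour (33.4% of all being tough-only). Flanks of 100 kb gave 2 neighbours for tough-only and 2 for shared islands, and flanks of 1 Mb gave 15 and 15. Centre to centre, the distances were 26049 bp to tender islands, 27749 bp to tough islands and 29799 bp for shared. The bosTau4 lists gave 1796 tough-only islands, 2.30 score per window, 13 reads, 22.1% with a tough-only nearest neighbour and 58.3% tough-only under a score of 30. The bosTau4 lists, the reads under the higher tough limit and the last 5 Mb were alternatives chosen after seeing the data. The stricter limits and the 50% overlap change which islands count. Other flanks and centre-to-centre distances change what is measured. The cause of the remaining shifts, those in the bosTau4 lists, was not tested.

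No paired analysis was possible because each group is 1 library. Several limits apply: a tough-only island rests on a median of 14 reads, the tender library had fewer reads per window, and no input control or tender reads at these places were used here, so a missing tender island does not show a missing mark.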
